A study of Mus musculus with 37 samples.

Results

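The genes described here are 9 genes of hepatic glucose production, glucose transport and glycogen storage, of 55487 genes measured in mouse liver. They were taken by name from a fixed list: Pcx, Pck1, Fbp1, G6pc, Slc2a2, Gys2, Pfkfb1, Pfkfb3 and Ppargc1a. All 9 were found in the table, and all 9 passed the filter on low counts that left 15564 genes for testing. RNA was sequenced in 37 liver libraries from Nox4 knockout (KO) and wild-type (WT) mice, after surgical removal of most of the liver (partial hepatectomy) or a sham operation. Nox4 is an NADPH oxidase that produces hydrogen peroxide, and the series' title states a question about its deletion and the pace of liver regeneration.

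The KO libraries were 3 livers at 6 h after hepatectomy, 4 at 24 h, 4 at 48 h, 3 at 7 d and 5 sham livers. The WT libraries were 3 livers at 6 h, 3 at 24 h, 4 at 48 h, 3 at 7 d and 5 sham livers. Replicate numbers were given here in the order of the samples within each group, since the labels hold none. Sham livers were pooled within a genotype although their times were mixed. KO sham replicate 1 was taken at 24 h, replicates 2 and 3 at 48 h, replicate 4 at 72 h and replicate 5 at 6 h. WT sham replicate 1 was taken at 7 d, replicates 2 and 4 at 48 h, replicate 3 at 24 h and replicate 5 at 6 h. Every 6 h hepatectomy liver was male, and each other group held both sexes. The labels give no strain, age or feeding state, and do not say how the Nox4 allele was made or whether each library came from its own animal. P-values therefore measure the spread between these libraries, part of which may be technical where libraries share an animal. A group that held both sexes came from more than 1 animal.

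The liver releases glucose in fasting by building it from lactate, amino acids and glycerol (gluconeogenesis) and by breaking down glycogen, and it takes glucose up and stores it as glycogen after a meal. Glucagon, acting through cyclic AMP, and glucocorticoids raise transcription of the gluconeogenic enzymes, and insulin lowers it. Removal of most of the liver leaves a small remnant to supply the blood glucose of the whole animal while its cells grow and divide.

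The first group comprises the enzymes of the route from pyruvate to glucose. Pcx encodes pyruvate carboxylase, the mitochondrial entry step, and lies at chr19:4510472-4621752 on the plus strand. Pck1 encodes cytosolic phosphoenolpyruvate carboxykinase, which makes phosphoenolpyruvate from oxaloacetate, and lies at chr2:173153048-173159273 (plus strand). Fbp1 encodes fructose bisphosphatase, which opposes phosphofructokinase, and lies at chr13:62864753-62888282 (minus strand). The last step, release of free glucose from glucose phosphate in the endoplasmic reticulum, is made by the catalytic subunit encoded by G6pc at chr11:101367561-101377903 (plus strand). Slc2a2, at chr3:28697903-28731359 (plus strand), encodes GLUT2, the main glucose carrier of the hepatocyte membrane, and Gys2, at chr6:142422613-142473109 (minus strand), encodes liver glycogen synthase. Pfkfb1, at chrX:150588229-150643878 (plus strand), and Pfkfb3, at chr2:11471433-11554077 (minus strand), encode the liver and the inducible form of the bifunctional enzyme that makes and removes the main activator of phosphofructokinase. Ppargc1a, at chr5:51454250-51567726 (minus strand), encodes the coactivator PGC-1alpha, which cooperates with nuclear receptors and FOXO1 on gluconeogenic genes in fasting. Positions are those of GENCODE M21 on GRCm38 and cover the whole gene, exons and introns.

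Promoter windows of 4 genes are shown because 3 of them were the only windows of the set with the letters TGACGT, part of the cyclic AMP response element, and the other belongs to G6pc, the gene whose level varied most. Each is 300 bases of RefSeq sequence on GRCm38.p6, 250 before and 50 after an annotated start, 5′ to 3′ on the gene's strand. Capitals mark TGACGT (or its reverse complement ACGTCA) and, in G6pc, the core of the insulin response sequence, TGTTTTG (reverse complement CAAAACA). Both strands were searched, and these motifs do not overlap each other in the windows shown.
Pck1, chr2:173152823-173153122, plus strand: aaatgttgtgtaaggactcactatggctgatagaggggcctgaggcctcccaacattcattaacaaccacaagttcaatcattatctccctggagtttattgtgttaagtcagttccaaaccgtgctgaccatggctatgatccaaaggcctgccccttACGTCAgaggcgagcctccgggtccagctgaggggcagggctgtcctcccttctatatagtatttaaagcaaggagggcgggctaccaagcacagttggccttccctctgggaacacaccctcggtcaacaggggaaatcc
Ppargc1a, chr5:51567676-51567975, minus strand: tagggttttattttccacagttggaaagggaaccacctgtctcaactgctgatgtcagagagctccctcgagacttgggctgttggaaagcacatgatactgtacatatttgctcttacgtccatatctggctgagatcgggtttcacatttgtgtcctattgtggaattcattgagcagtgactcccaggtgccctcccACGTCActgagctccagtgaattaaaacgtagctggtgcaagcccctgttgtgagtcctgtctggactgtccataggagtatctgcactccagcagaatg
Pfkfb3, chr2:11553880-11554179, minus strand: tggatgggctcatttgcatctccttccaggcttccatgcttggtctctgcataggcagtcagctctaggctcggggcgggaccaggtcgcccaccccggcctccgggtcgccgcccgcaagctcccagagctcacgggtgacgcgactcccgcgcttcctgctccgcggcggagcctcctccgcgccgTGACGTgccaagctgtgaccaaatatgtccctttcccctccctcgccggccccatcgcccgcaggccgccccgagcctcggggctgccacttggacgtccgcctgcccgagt
G6pc, chr11:101367466-101367765, plus strand: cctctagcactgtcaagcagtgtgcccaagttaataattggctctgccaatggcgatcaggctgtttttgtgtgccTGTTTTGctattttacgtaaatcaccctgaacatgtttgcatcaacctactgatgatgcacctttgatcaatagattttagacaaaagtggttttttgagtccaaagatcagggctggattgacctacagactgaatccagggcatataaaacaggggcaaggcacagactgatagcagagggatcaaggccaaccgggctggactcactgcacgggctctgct
Counted with the base before the start as -1, the cyclic AMP element letters begin at -91 in Pck1, at -50 in Ppargc1a and at -62 in Pfkfb3, and the insulin response core at -174 in G6pc. Those letters were found in 7.51% and the insulin response core in 6.28% of 32851 promoter windows of the same length. A TATA box (TATAAA, or TTTATA in reverse), present in 13.6% of windows, begins at -29 in G6pc. RefSeq windows were held for 8 of the 9 genes, 13 in all, and Gys2 had none. These matches describe letters only.

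Total counts ranged from 26232544 to 48827025 per library. Nox4 had 0.325 to 4.98 CPM (counts scaled to a common library size) in 12 KO males against 3.95 to 23.5 CPM in 11 WT males, and 0 to 0.245 CPM in 7 KO females against 0.778 to 3.36 CPM in 7 WT females, so the male ranges overlapped and the female ranges did not. Hepatocyte markers summed to between 45010 and 170400 CPM in every library. Some libraries stood apart. WT 24 h replicate 3 had the highest mitochondrial share of counts, 8.93%, and the lowest hepatocyte marker sum. KO 24 h replicate 1, a female, differed from the other 3 KO 24 h livers: without it, 6161 in place of 4351 genes differed between KO 24 h and KO sham livers. The 6 h sham livers, 1 in each genotype, had values of several of these genes outside those of the later sham livers. Where leaving out one of these libraries, or both 6 h sham livers, changed a call of the 9 genes, the value without it is given.

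Levels below are CPM on library sizes scaled by TMM, a method that sets the bulk of genes equal between libraries. Per kilobase of exon, the median over the 37 livers was 607 CPM for Fbp1, 522 for Pck1, 107 for Pcx, 57.5 for G6pc, 47.8 for Gys2, 27.5 for Slc2a2, 4.46 for Pfkfb1, 1.46 for Pfkfb3 and 0.580 for Ppargc1a. The enzymes of the pathway were thus abundant and the coactivator scarce, with 32 to 559 counts per library for Ppargc1a. G6pc ranged most, with a highest CPM 279 times its lowest, followed by Pfkfb1 (30.4 times) and Pfkfb3 (27.8 times), whereas Fbp1 ranged 4.69 times and Pcx 5.15 times. Reads from whole liver cannot tell fewer cells of a type from less RNA per cell.

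**Figure D1:**
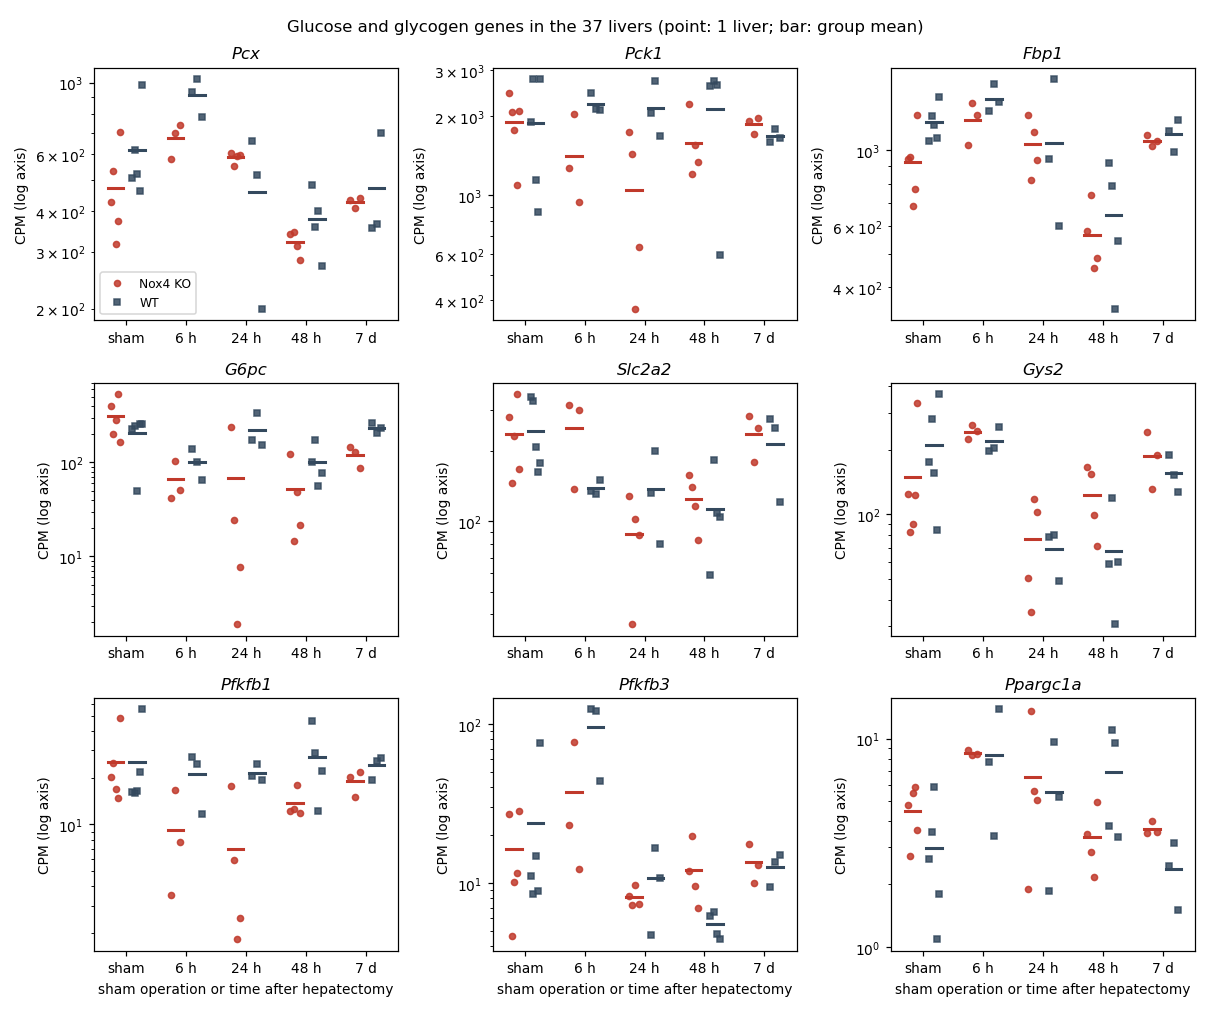
Level of each of the 9 genes in CPM (log axis, a different range in each panel) in every liver, by sham operation or time after hepatectomy; red circles are KO livers, dark squares are WT livers and bars are group means. G6pc spread over the widest range, from 1.91 CPM in KO 24 h replicate 3 to 532 CPM in KO sham replicate 4, and Fbp1 over a narrow one.

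Each stage was compared with the sham livers of its own genotype, and the adjusted p-values are from edgeR's quasi-likelihood test with Benjamini-Hochberg adjustment over all 15564 genes (threshold 0.05). The stages of a genotype share their sham livers, so these comparisons are not independent of each other. At 6 h, none of the 9 genes passed in KO livers (2 had an unadjusted p under 0.05, and DESeq2 called 1), where 6.62% of all genes passed, and 2 rose in WT livers, where 7.86% of all genes passed. At 24 h, 3 of 9 fell in KO livers, against 28% of all genes called in either direction, and none passed in WT livers (1 unadjusted, 1 by DESeq2), against 0.925%. At 48 h, none passed in KO livers (4 unadjusted, 1 by DESeq2), against 3%, and 3 of 9 fell in WT livers, against 8.29%. At 7 d none passed in either genotype (0 unadjusted and 0 by DESeq2 in each), and 0% of all genes passed in either: 497 genes in KO and 950 in WT livers had an unadjusted p under 0.05, and DESeq2 called 8 and 25. The log2 changes of the 9 genes at 7 d ran from -1.45 (G6pc) to 0.43 (Gys2) in KO livers and from -0.93 (Pfkfb3) to 0.21 (G6pc) in WT livers. The share of the 9 genes called at 24 h in KO livers was therefore close to that of all genes. In fits of only the groups compared, these calls of the 9 genes were all lost. Those fits called 1138 of all genes in KO livers at 24 h, 1 in WT livers at 6 h and 365 in WT livers at 48 h. The median log2 change of the 9 genes was -0.87 in KO livers at 24 h and -0.90 in WT livers at 48 h, where that of all genes tested was -0.01 and 0.07. It was 0.40 in KO and 0.22 in WT livers at 6 h, -0.23 in WT livers at 24 h and -0.58 in KO livers at 48 h. At 7 d it was -0.04 in KO and -0.15 in WT livers. In those comparisons that of all genes ran from -0.014 to 0.036.

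**Figure D2:**
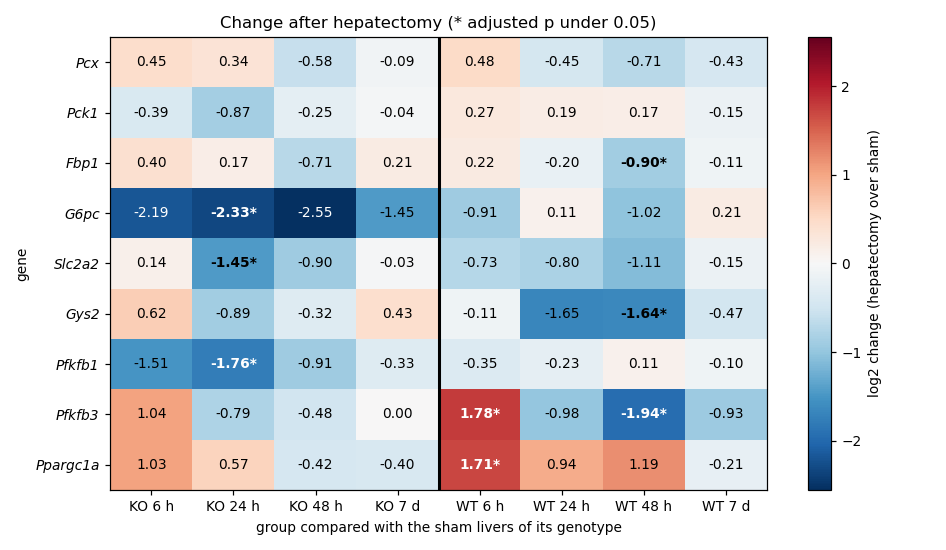
Log2 change of each gene (rows) at each stage after hepatectomy against the sham livers of the same genotype (columns, KO left of WT), with colour and number giving the change and an asterisk an adjusted p under 0.05. The 8 asterisks fall in 3 columns, KO 24 h, WT 6 h and WT 48 h, and no single gene has one in both genotypes.

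Among the pathway enzymes, Pcx passed in no comparison. It averaged 588 ± 23.2 CPM in KO 24 h livers (SD, n = 4), 320.3 ± 28.2 CPM in KO 48 h livers (n = 4) and 471 ± 153 CPM in KO sham livers (n = 5). In WT livers it averaged 916 ± 122 CPM at 6 h (n = 3), 378 ± 89.1 CPM at 48 h (n = 4) and 618 ± 212 CPM after sham operation (n = 5). Its highest group was WT 6 h, and its lowest was KO 48 h. On these TMM-scaled sizes the WT 6 h range did not overlap that of KO 6 h livers, next in order, and every other pair of neighbouring groups overlapped. The log2 difference of KO from WT livers at 6 h was -0.44 ± 0.32 (SE, adjusted p 0.66). TMM factors were 0.658 to 0.761 in WT 6 h and 0.763 to 0.849 in KO 6 h livers.

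Pck1 was held at a high level in most livers. The KO 24 h livers had 1747, 1441, 370 and 636 CPM, against 2457, 2074, 1774, 1092 and 2099 CPM in KO sham livers. Replicates 3 and 4 at 24 h lay below every KO sham liver, and replicates 1 and 2 lay within the sham range. The log2 change was -0.87 ± 0.40 (SE) with an adjusted p of 0.103. Without KO 24 h replicate 1 the change was -1.23, and it then passed with an adjusted p of 0.0261. In WT livers Pck1 was at 2058, 2723 and 1675 CPM at 24 h, against 1902, 2760, 1147, 866 and 2770 CPM after sham operation, all within the sham range. The 10 group means of Pck1 ran from 1048 CPM (KO 24 h) to 2226 CPM (WT 6 h), and all neighbours in that order overlapped. Groups further apart did not always: KO 6 h livers (940 to 2040 CPM) lay below all WT 6 h livers (2104 to 2444 CPM). That log2 difference was -0.65 ± 0.48 and did not pass (adjusted p 0.663).

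Fbp1 fell in WT livers at 48 h. Its levels were 919, 788, 344 and 545 CPM in WT 48 h livers, against 1068, 1262, 1188, 1085 and 1431 CPM in WT sham livers. All 4 hepatectomy livers lay below all 5 sham livers. The log2 change was -0.90 ± 0.25 (SE), with an adjusted p of 0.0242. The call was lost without the 6 h sham livers of both genotypes (-0.81, adjusted p 0.0508), without WT sham replicate 5 (-0.82, 0.0532), without WT 48 h replicate 3 (-0.68, 0.113) and without WT 48 h replicate 4 (-0.84, 0.0669), with the direction kept each time. In KO livers Fbp1 was at 583, 740, 452 and 485 CPM at 48 h, against 943, 955, 686, 770 and 1268 CPM after sham operation, and only replicate 2 reached into the sham range. That change was -0.71 ± 0.25 on the log2 scale and did not pass (adjusted p 0.138).

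G6pc showed the widest spread of the set. In KO livers 24 h after hepatectomy it was at 239.5, 24.3, 1.91 and 7.82 CPM, against 396, 201, 280, 532 and 166 CPM in KO sham livers. Replicates 2, 3 and 4 lay far below every sham liver, and replicate 1 lay inside the sham range. The fitted log2 change was -2.33 ± 0.83 (SE) with an adjusted p of 0.036. Without replicate 1 it was -4.81 with an adjusted p of 1.96e-05. The call was lost without KO 24 h replicate 2 (-1.97, adjusted p 0.122), replicate 3 (-1.80, 0.102) or replicate 4 (-1.97, 0.108), and without KO sham replicate 1 (-2.23, 0.0568) or replicate 4 (-2.07, 0.0757).

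The other KO stages after hepatectomy also had low G6pc values. The 6 h KO livers had 42.4, 105 and 51.6 CPM. The 48 h KO livers had 125, 14.5, 48.8 and 21.5 CPM, and those of 7 d had 146, 128 and 88.1 CPM. Every one of these 10 livers lay below the lowest KO sham liver, 166 CPM. None of the 3 log2 changes passed: -2.19 ± 0.90 at 6 h (adjusted p 0.139), -2.55 ± 0.81 at 48 h (0.0886) and -1.45 ± 0.86 at 7 d (1). DESeq2, with the same groups and sex term, called the 6 h change (-2.22, adjusted p 0.0479) and the 48 h change (-2.56, 0.0124).

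The 6 h WT livers had 139, 102 and 64.4 CPM of G6pc, and those of 24 h had 173, 338.5 and 153 CPM. The 48 h WT livers had 101, 174, 56.9 and 77.7 CPM, and those of 7 d had 261, 207 and 232 CPM. The WT sham livers had 227, 242, 49.5, 257 and 256 CPM. Apart from sham replicate 3, at 49.5 CPM, every WT sham liver lay above all 7 livers taken at 6 h or 48 h. No WT change passed, the nearest being -0.91 ± 0.86 at 6 h (adjusted p 0.542) and -1.02 ± 0.76 at 48 h (0.454).

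Slc2a2, the glucose carrier, fell in KO livers at 24 h, and this call held with each library left out in turn. It was at 128, 36.4, 102 and 87.4 CPM in KO 24 h livers, against 279.8, 146, 232, 349 and 167 CPM in KO sham livers. The groups did not overlap. The log2 change was -1.45 ± 0.37 (SE), adjusted p 0.00468, and over the 9 fits that each left out 1 library it ran between -1.65 and -1.17. The call was lost in a fit of only the groups compared (-1.46, adjusted p 0.0558). WT livers at 24 h had 132, 200.5 and 80.0 CPM, against 338, 327, 207, 163 and 178 CPM in WT sham livers, a change of -0.80 ± 0.40 that did not pass (adjusted p 0.324). At 48 h, WT livers had 58.8, 182, 109 and 104 CPM, and the change of -1.11 ± 0.36 missed the threshold with an adjusted p of 0.0538. It passed in 7 of the other settings, among them DESeq2 (-1.15, adjusted p 0.0182) and the fit without the 6 h sham livers (-1.19, 0.0486). At 6 h, WT livers had 135, 131 and 149.5 CPM, all below the WT sham range, a change of -0.73 ± 0.41 that did not pass (adjusted p 0.273). KO livers at 6 h had 315, 138 and 300 CPM and overlapped the KO sham livers (0.14 ± 0.39, adjusted p 0.88). The lowest group mean was that of KO 24 h livers, 88.4 CPM, and the highest that of KO 6 h livers, 251 CPM. Neighbours in the order of the 10 means overlapped throughout, though groups further apart in it did not always.

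Gys2, which builds glycogen chains, fell in WT livers at 48 h. The WT 48 h livers had 58.4, 120, 30.7 and 60.1 CPM, against 175, 281, 156, 84.5 and 366 CPM in WT sham livers. Only 48 h replicate 2 reached above the lowest sham liver. The log2 change was -1.64 ± 0.42 (SE) with an adjusted p of 0.0133, and the call held with each of the 9 libraries left out in turn (-2.25 to -1.42). It was lost in a fit of only the groups compared (-1.67, adjusted p 0.0921). At 24 h, WT livers had 78.6, 80.0 and 48.7 CPM, all below the WT sham range, a change of -1.65 ± 0.47 that missed the threshold in edgeR (adjusted p 0.0784) and passed in DESeq2 (0.0146). It was -1.39 without WT 24 h replicate 3 (adjusted p 0.571), in a fit that called 0 of all genes at that stage.

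Gys2 was at 226, 262 and 245 CPM in the 6 h KO livers. Those of 24 h had 50.7, 34.8, 118 and 103 CPM, and those of 48 h had 167, 154, 99.2 and 70.9 CPM. The KO sham livers had 125, 83.2, 89.9, 123 and 331 CPM. The last of these values is the sham liver taken at 6 h, and the 6 h hepatectomy livers lay between it and the later sham livers. No KO change of Gys2 passed, with -0.89 ± 0.42 at 24 h (adjusted p 0.107).

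The 2 bifunctional enzymes moved at different stages. Pfkfb1 fell in KO livers at 24 h, where it was at 17.6, 5.94, 1.82 and 2.51 CPM, against 20.2, 25.0, 17.0, 14.8 and 48.7 CPM in KO sham livers. Replicate 1 lay within the sham range, and the other 3 lay below it. The log2 change was -1.76 ± 0.53 (SE), adjusted p 0.0145, and -2.91 (5.42e-05) without replicate 1. The call was lost without KO 24 h replicate 2 (-1.62, adjusted p 0.0548), replicate 3 (-1.38, 0.068) or replicate 4 (-1.50, 0.0645). WT 24 h livers had 20.5, 24.6 and 19.5 CPM of Pfkfb1, against 16.3, 16.0, 16.4, 21.9 and 55.3 CPM in WT sham livers, within the sham range. At 6 h Pfkfb1 was at 3.53, 16.6 and 7.75 CPM in KO livers, a change of -1.51 ± 0.58 that did not pass (adjusted p 0.114).

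Pfkfb3 passed at 6 h and at 48 h in WT livers, in opposite directions. It was at 123, 119.6 and 44.0 CPM in WT 6 h livers and 6.17, 6.60, 4.78 and 4.43 CPM in WT 48 h livers, against 11, 8.59, 14.8, 8.92 and 75.7 CPM in WT sham livers. The value of 75.7 CPM is the sham liver taken at 6 h. The other 4 sham livers lay below every 6 h liver and above every 48 h liver. The rise at 6 h was 1.78 ± 0.57 (SE) on the log2 scale, adjusted p 0.0497. It passed without the 6 h sham livers of both genotypes (2.90, 0.000573), and it was lost with any 1 of the other 7 WT 6 h or sham libraries left out (WT sham replicates 1 to 4 and WT 6 h replicates 1 to 3, log2 changes of 1.55 to 2.12, adjusted p between 0.0883 and 0.166). The fall at 48 h was -1.94 ± 0.56, adjusted p 0.0279. It was lost without the 6 h sham livers (-1.05, adjusted p 0.16), without WT sham replicate 5 (-1.06, 0.165) and without WT 48 h replicate 1 (-1.86, 0.074), replicate 3 (-1.97, 0.0587) or replicate 4 (-1.75, 0.0826).

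Pfkfb3 was at 23.0, 77.1 and 12.3 CPM in the 6 h KO livers. Those of 24 h had 8.30, 7.24, 9.68 and 7.36 CPM, and those of 48 h had 11.9, 19.6, 9.60 and 6.95 CPM. The KO sham livers had 27.3, 4.63, 10.2, 11.6 and 28.3 CPM, and every KO group after hepatectomy overlapped them. No KO change passed, with 1.04 ± 0.57 at 6 h (adjusted p 0.289).

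Ppargc1a rose in WT livers at 6 h by a margin that most changes to the fit removed. The WT 6 h livers had 7.74, 3.41 and 13.8 CPM, against 2.64, 3.57, 5.86, 1.09 and 1.80 CPM in WT sham livers. Replicates 1 and 3 lay above the sham range and replicate 2 within it. The log2 change was 1.71 ± 0.55 (SE), adjusted p 0.0491, and it was lost without WT 6 h replicate 1 (1.76, 0.0947) or replicate 3 (1.13, 0.359) and without WT sham replicate 1 (1.73, 0.114), 2 (1.74, 0.0724), 4 (1.52, 0.0987) or 5 (1.57, 0.0639), and without the 6 h sham livers of both genotypes (1.56, 0.0676). With RLE scaling the adjusted p was 0.0501, and with scaling by total count the change was 1.24 (0.154). In KO livers at 6 h Ppargc1a was at 8.78, 8.32 and 8.40 CPM, against 4.81, 2.73, 5.48, 5.85 and 3.65 CPM in KO sham livers, without overlap, and that change of 1.03 ± 0.52 did not pass (adjusted p 0.244).

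KO livers were next set against WT livers at the same stage, and none of the 9 genes passed at any of them. The unadjusted p was under 0.05 for 0 genes after sham operation, 1 at 6 h, 3 at 24 h, 0 at 48 h and 0 at 7 d, and DESeq2 called 1 gene, at 24 h. Of all genes, 0.276% passed after sham operation, 0.116% at 6 h, 18.6% at 24 h, 0.341% at 48 h and 0.045% at 7 d. The log2 differences of the 9 genes ran from -0.61 (Pfkfb3) to 0.71 (Ppargc1a) after sham operation, from -1.04 (Pfkfb1) to 0.85 (Pfkfb3) at 48 h and from -0.999 (G6pc) to 0.52 (Ppargc1a) at 7 d. At 6 h they ran from -1.35 (Pfkfb3, the gene with an unadjusted p under 0.05, adjusted p 0.461) to 0.86 (Slc2a2). On TMM-scaled sizes KO and WT ranges did not overlap for Pcx and Pck1 at 6 h, Pfkfb3 at 48 h, and G6pc and Ppargc1a at 7 d. Each of these groups held only 3 or 4 livers. At 24 h the 3 genes were Pfkfb1, Pck1 and G6pc, all lower in KO livers. Pfkfb1 was at 17.6, 5.94, 1.82 and 2.51 CPM in KO livers and 20.5, 24.6 and 19.5 CPM in WT livers, without overlap, a log2 difference of -1.55 ± 0.57 (SE, adjusted p 0.0554). Pck1 was at 1747, 1441, 370 and 636 CPM in KO livers and 2058, 2723 and 1675 CPM in WT livers, where only KO replicate 1 reached the WT range (-1.05 ± 0.45, adjusted p 0.0942). G6pc differed by -1.78 ± 0.86 (adjusted p 0.14), with KO replicate 1 inside and the other 3 below the WT range.

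Whether these 3 differences passed varied with the libraries and settings used. Without KO 24 h replicate 1, the log2 difference between KO and WT livers at 24 h was -4.34 for G6pc (adjusted p 0.000129), -2.71 for Pfkfb1 (0.000299) and -1.41 for Pck1 (0.0219), and all 3 passed. Without WT 24 h replicate 3 none of the 3 passed, with -1.96 for G6pc (adjusted p 0.155), -1.69 for Pfkfb1 (0.0733) and -1.25 for Pck1 (0.082). Every library was left out in turn, and these 2 were singled out after their values were seen. With every 24 h liver kept, Pfkfb1 also passed in DESeq2 (-1.56, adjusted p 0.0352), without the 6 h sham livers (-1.65, 0.0262), with total count scaling and with no sex term, and Pck1 passed with total count scaling. All 3 passed with no count filter, and in males alone, which leaves out KO 24 h replicate 1, G6pc and Pfkfb1 passed.

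The difference between genotypes in the response to hepatectomy was tested as an interaction. No gene of the 9 passed at 6 h, 24 h, 48 h or 7 d, where 0, 2, 2 and 0 had an unadjusted p under 0.05 and DESeq2 called 0 each time. Of all genes, 8.47% passed at 24 h and 0% at 6 h, 48 h and 7 d, where 715, 1198 and 347 genes had an unadjusted p under 0.05 and DESeq2 called 9, 50 and 3. The 24 h count of 1319 genes was 0 without WT 24 h replicate 3 (3282 with an unadjusted p under 0.05), 0 with only the groups compared (3082 unadjusted) and 3659 without KO 24 h replicate 1. At 24 h the interaction was -2.44 ± 1.13 (SE) for G6pc (adjusted p 0.162) and -1.53 ± 0.74 for Pfkfb1 (0.182), and without KO 24 h replicate 1 it was -4.90 (0.000425) and -2.66 (0.00367). At 48 h it was 1.32 ± 0.57 for Gys2 (adjusted p 0.583) and -1.62 ± 0.69 for Ppargc1a (0.573). That a gene such as Slc2a2 passed at 24 h in KO and not in WT livers does not show that the responses differed. The interaction of Slc2a2, -0.65, had an approximate 95% interval of -1.68 to 0.39. That interval is 1.96 SE on each side, a normal approximation somewhat narrower than the test implies.

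The 24 h livers also show how the genes varied between libraries labelled alike. Relative to the KO sham mean, KO 24 h replicate 1 stood at -0.40 for G6pc, -0.51 for Pfkfb1 and -0.12 for Pck1 on the log2 scale. KO 24 h replicate 3 stood at -7.37, -3.79 and -2.36, and replicate 4 at -5.33, -3.33 and -1.58. Replicate 2 stood at -3.70 for G6pc, -2.08 for Pfkfb1 and -0.40 for Pck1, and had the lowest Slc2a2 of the 37 livers, -2.69. In contrast, Pcx lay within 0.23 to 0.36 of the KO sham mean in all 4 livers. Livers 2, 3 and 4 had high values of hormone-responsive genes (10 genes, among them Tat, Igfbp1 and Pdk4, which glucocorticoids or cyclic AMP raise or insulin lowers): their summed CPM was 1327, 4418, 9523 and 9631 in KO 24 h replicates 1 to 4, against 989.8 to 2887 in KO sham livers. The same livers had low summed Kupffer cell markers, 318, 83.2, 92.3 and 140.2 CPM in replicates 1 to 4, against 269.7 to 411 CPM in KO sham livers, with no marker at 0 in the whole group. Hepatocyte markers summed to 107900, 112100, 135500 and 170400 CPM there, against 101700 to 138800 CPM in KO sham livers. The part of any of these in the values of the 9 genes was not tested.

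**Figure D3:**
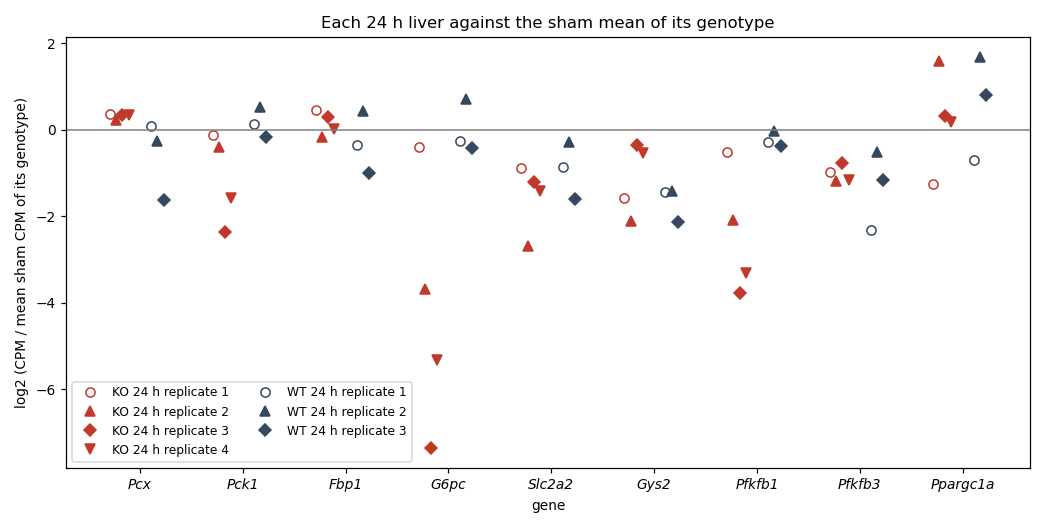
Log2 ratio of CPM in each 24 h liver to the mean of the sham livers of its genotype, for the 9 genes, with KO livers in red to the left of WT livers in dark blue and a different symbol for each replicate. For G6pc, Pfkfb1 and Pck1 the open red circle (KO replicate 1) lies near 0 while KO replicates 3 and 4 lie between -1.58 and -7.37, and for Pcx the 4 KO livers coincide.

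The sham livers taken at 6 h allow a look at the 6 h stage against a liver operated on at the same time, with 1 such liver in each genotype and so no test. Pcx was at 581 to 739 CPM in KO 6 h livers, against 704 CPM in the KO 6 h sham liver and 317 to 534 CPM in the later KO sham livers. In WT livers it was at 785.5 to 1026 CPM at 6 h, against 983 CPM in the 6 h sham liver and 461 to 621 CPM in the later ones. The hepatectomy livers and the 6 h sham liver thus had like values of Pcx, and both lay above the later sham livers. Pfkfb1 was at 3.53 to 16.6 CPM in KO 6 h livers, against 48.7 CPM in the 6 h sham liver, and at 11.7 to 27.2 CPM in WT 6 h livers, against 55.3 CPM. The mean after hepatectomy over the 6 h sham value was -2.39 in KO and -1.39 in WT on the log2 scale. For G6pc the same ratio was -1.33 in KO and -1.33 in WT livers, and for Ppargc1a it was 1.22 in KO and 2.21 in WT livers. For Pfkfb3 it was 0.40 in KO and 0.34 in WT livers.

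**Figure D4:**
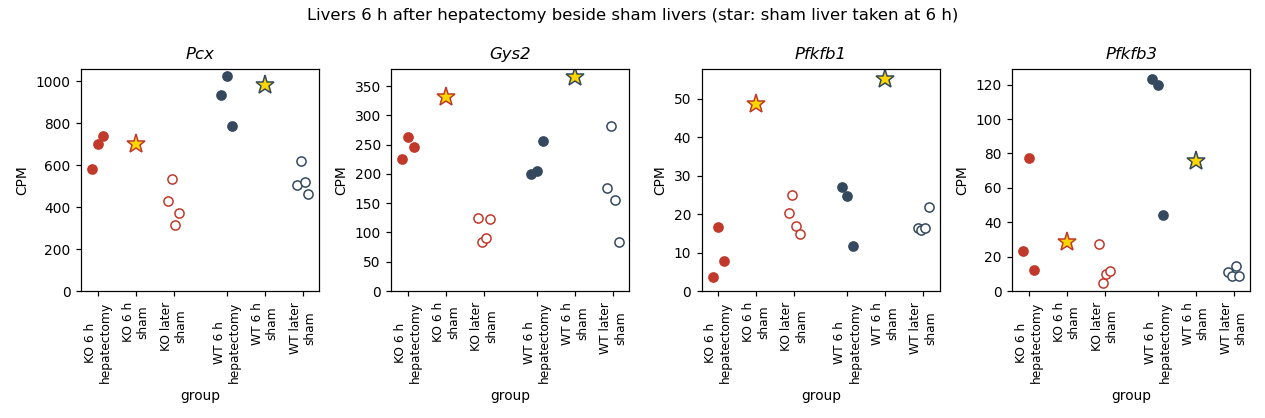
CPM of Pcx, Gys2, Pfkfb1 and Pfkfb3 in livers 6 h after hepatectomy (filled points), in the 1 sham liver of each genotype taken at 6 h (star) and in the later sham livers (open points), KO in red and WT in dark blue. For Pfkfb1 both stars, at 48.7 CPM in KO and 55.3 CPM in WT, lie above all other points shown, and for Pcx they lie among the 6 h hepatectomy livers.

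Other genes of the same routes were counted from lists. Of 18 further gluconeogenic enzymes and carriers, 0 rose and 3 fell in KO livers at 48 h (among them Slc37a4 and Got1), beside 3% of all genes called. In WT livers at 48 h 1 rose and 5 fell, beside 8.29% of all genes. Slc37a4, which carries glucose phosphate to the enzyme encoded by G6pc, averaged 64.1 CPM in KO 48 h livers and 159 CPM in KO sham livers (log2 change -1.31 ± 0.30, adjusted p 0.0116). It averaged 63.5 CPM in WT 48 h livers and 197 CPM in WT sham livers (-1.63 ± 0.31, 0.00162). At 24 h in KO livers 2 of the 18 rose and 0 fell (G6pc3 and Mpc1), beside 28% of all genes called. In WT livers at 24 h 0 of 18 passed (6 unadjusted, 1 by DESeq2), beside 0.925% of all genes. In WT livers at 48 h Sds, the serine dehydratase, fell by 1.91 ± 0.49 on the log2 scale (adjusted p 0.0119), and the 1 that rose, Fbp2, averaged 0.532 CPM there and 0.0745 CPM in WT sham livers. At 6 h 0 of 18 passed in KO livers (3 unadjusted, 0 by DESeq2), beside 6.62% of all genes. In WT livers at 6 h 1 of 18, Pck2, fell, beside 7.86% of all genes. Without the 6 h sham livers these counts moved: 4 rose and 0 fell in KO livers and 4 rose and 2 fell in WT livers at 6 h, and 0 rose and 1 fell in KO livers and 3 rose and 2 fell in WT livers at 48 h. The counts of all genes moved too. Of 15557 genes, that fit called 1845 in KO and 2943 in WT livers at 6 h, and 301 in KO and 1348 in WT livers at 48 h.

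Among 17 glycolytic genes, Pklr, the pyruvate kinase of liver, moved most. It was at 87.7, 22.0, 34.3 and 34.0 CPM in KO 24 h livers, against 380.2, 138, 527, 415 and 400 CPM in KO sham livers, without overlap (log2 change -3.11 ± 0.46, adjusted p 3.67e-05). It also fell in KO livers at 48 h (-2.49 ± 0.44, adjusted p 0.00185) and in WT livers at 24 h (-2.43 ± 0.49, 0.0186) and 48 h (-2.60 ± 0.44, 0.000657). In all, 5 of 17 fell and 0 rose in KO livers at 24 h, 2 fell in KO livers at 48 h, 1 fell in WT livers at 24 h and 2 fell in WT livers at 48 h. The enzymes opposite to Fbp1, Pfkl and Pfkm, were among the 5 (-0.83 ± 0.31 and -1.09 ± 0.36, adjusted p 0.0414 and 0.0246), and Pfkl was picked out after its values were seen. Without KO 24 h replicate 1, 1 of 17 rose and 6 fell, in a fit that called 6161 of 15555 genes. Without the 6 h sham livers 2 rose and 3 fell, in a fit that called 4682 of 15557 genes. The 5 of 17 stood beside 28% of all genes called in KO livers at 24 h. The shares of all genes were 3% in KO livers at 48 h, 0.925% in WT livers at 24 h and 8.29% in WT livers at 48 h. Without WT 24 h replicate 3, 0 of 17 passed in WT livers at 24 h, in the fit that called 0 of all genes.

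Of 16 genes of glycogen metabolism, 2 rose and 5 fell in KO livers at 24 h, where 28% of all genes were called. Ppp1r3b, the liver subunit that brings protein phosphatase to glycogen, was at 94.9, 14.8, 10.1 and 14.3 CPM in KO 24 h livers, against 182, 59.5, 188, 156 and 68.8 CPM in KO sham livers, and fell by 2.22 ± 0.55 (log2, adjusted p 0.00392). Again replicate 1 was the one within the sham range. Pygl, liver glycogen phosphorylase, fell by 1.29 ± 0.34 (adjusted p 0.00544). Pgm2, a phosphoglucomutase family member, rose by 2.11 ± 0.33 (6.99e-05), and was at 3.76, 15.03, 18.1 and 20.8 CPM in KO replicates 1 to 4, against 1.87 to 4.04 CPM in KO sham livers. In WT livers 0 of 16 passed at 24 h (1 unadjusted, 1 by DESeq2), beside 0.925% of all genes. At 48 h in WT livers 1 rose (Pgm2) and 1 fell (Pygl, -1.40 ± 0.34, adjusted p 0.00798). At 48 h in KO livers Pygl alone of the 16 passed and fell by 1.25 ± 0.33 (0.0333). Of all genes, 3% in KO and 8.29% in WT livers were called at 48 h. Without the 6 h sham livers 0 of 16 passed in KO livers at 48 h, and 0 rose and 1 fell in WT livers at 48 h. That fit called 301 of 15557 genes in KO and 1348 in WT livers at 48 h.

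Among 6 tested glucose and fructose transporters, 1 rose and 2 fell in KO livers at 24 h, beside the same 28% of all genes. Slc2a1, the widespread carrier GLUT1, was at 8.33, 24.9, 87.9 and 53.7 CPM in KO 24 h livers, against 5.37, 7.82, 3.17, 5.93 and 6.32 CPM in KO sham livers (log2 change 2.92 ± 0.49, adjusted p 0.000107). All 4 hepatectomy livers lay above the sham livers, whereas Slc2a2 lay below them. WT 24 h livers had 9.72, 7.53 and 4.53 CPM of Slc2a1, and its interaction was 2.95 ± 0.72 (adjusted p 0.0147). That call was lost without WT 24 h replicate 3 (2.57, adjusted p 0.0887), where the interaction called 0 of all genes. In the same KO livers Slc2a5 and Slc2a9, carriers of fructose and of urate, fell by 2.79 ± 0.73 and 1.29 ± 0.31 (adjusted p 0.0057 and 0.00279). At 24 h 0 of 6 passed in WT livers (0 unadjusted, 0 by DESeq2), beside 0.925% of all genes. In WT livers 1 of 6 fell at 6 h (5 unadjusted), beside 7.86% of all genes, and 1 fell at 48 h (4 unadjusted), beside 8.29%. In KO livers 1 rose at 6 h (1 unadjusted), beside 6.62%, and 0 passed at 48 h (0 unadjusted, 0 by DESeq2), beside 3%.

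Of 21 regulators of these genes, 4 rose and 4 fell in KO livers at 24 h (28% of all genes were called there). In WT livers 0 of 21 passed at 24 h (3 unadjusted, 0 by DESeq2), beside 0.925% of all genes. Sik1, a kinase gene induced by cyclic AMP, was at 24.2, 151, 201 and 128 CPM in KO 24 h livers, against 10.4 to 20.1 CPM in KO sham livers (log2 change 2.98 ± 0.54, adjusted p 0.000264). Mlxipl, the glucose-responsive factor ChREBP, fell by 1.71 ± 0.36 (0.000987), and Klf15 fell by 0.79 ± 0.21 (0.00637). Crtc2, a coactivator of CREB, rose by 1.06 ± 0.23 (0.00126). The interaction at 24 h was called for Sik1 (3.31 ± 0.81, adjusted p 0.0147), Crtc2 (1.61 ± 0.35, 0.00912) and Foxo1 (1.54 ± 0.40, 0.0201). None of these passed without WT 24 h replicate 3, with 3.16 for Sik1 (adjusted p 0.0783), 1.29 for Crtc2 (0.072) and 1.29 for Foxo1 (0.1). At 6 h Sik1 rose in both genotypes, by 3.53 ± 0.58 in KO livers (adjusted p 0.000572) and 2.20 ± 0.58 in WT livers (0.0181). Of the 10 hormone-responsive genes, a list that shares Sik1 and Nr4a1 with the regulators, 4 rose and 1 fell in KO livers at 6 h. In WT livers at 6 h 4 rose and 0 fell. Of all genes, 6.62% were called in KO and 7.86% in WT livers. The 10 genes summed to 5546 to 8748 CPM in WT 6 h livers, 5736 in the WT 6 h sham liver and 715.9 to 1510 in later WT sham livers. In KO livers the sums were 5686 to 7767, 2714 and 989.8 to 2887 CPM. At 24 h 6 of the 10 rose and 1 fell in KO livers, beside 28% of all genes. In WT livers at 24 h 0 of 10 passed (4 unadjusted, 0 by DESeq2), beside 0.925% of all genes.

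Markers of other liver cells were counted at the stages at which some of the 9 genes passed, and those of neutrophils also in KO livers at 6 h. In KO livers at 24 h, where 28% of all genes were called, 7 of 8 Kupffer cell markers, 3 of 5 sinusoidal endothelial markers and 4 of 5 T and NK cell markers fell, while 1 endothelial marker (Lyve1) and 1 of 5 cholangiocyte markers (Sox9) rose. Neutrophil and stellate cell markers had 0 of 5 called in each list there (0 and 1 unadjusted, 0 and 0 by DESeq2), and of 6 hepatocyte markers 1 rose (Fgb). In WT livers at 48 h, where 8.29% of all genes were called, 1 of 5 T and NK cell markers fell (5 unadjusted, 4 by DESeq2), as did 1 of 5 sinusoidal endothelial, 1 of 5 stellate cell and 1 of 6 hepatocyte markers, and of 8 Kupffer cell markers 1 rose and 1 fell. The summed T and NK cell markers were at 0.509 to 0.769 CPM in WT 48 h livers, against 0.814 to 3.08 CPM in WT sham livers, and the part of these cells in the values of the 9 genes was not tested. In WT livers at 6 h (7.86% of all genes called) 4 of 5 tested neutrophil markers rose, and their summed CPM was 28.5, 36.4 and 71.2, against 0.814 to 10.01 in WT sham livers. Of the 9 genes described here, Pfkfb3 is expressed in myeloid cells as well as in hepatocytes, and the part of neutrophils in its 6 h values was not tested. No marker list had a gene at 0 in every library of these groups.

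Likeness over the 37 livers was measured as Pearson's r of log2(CPM + 1) among 8542 genes with a mean of at least 5 CPM, as a description over livers that share groups and scaling. Pfkfb1 was closest to Tango2 (0.90), Trmt1l (0.87) and Mcfd2 (0.86). Fbp1 was closest to Hpd (0.87), Mccc1 (0.83) and Gcdh (0.81), and Pcx to Oplah, Hdlbp and Trap1 (each 0.86). Among the genes closest to Gys2 were Itm2b (0.81) and Pipox (0.81), and Slc2a2 was closest to Slc10a1 (0.82), Pklr (0.82) and Dhdh (0.81). The closest to G6pc were Sec14l2 (0.83), Cog4 (0.81) and Bhmt2 (0.80), and those closest to Pck1 included BC024978 (0.77) and Slc35a2 (0.74). Pfkfb3 was closest to Susd6 (0.83), Mbd1 (0.82) and Ripk1 (0.81), and Ppargc1a to Cemip2 (0.82), Adamts1 (0.81) and Msrb3 (0.80).

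Sex entered every comparison as a term. Of the 9 genes, 0 passed between male and female livers (1 unadjusted, 0 by DESeq2), where 3.59% of all genes passed. The nearest was Pfkfb3, higher in males by 0.71 ± 0.31 on the log2 scale (adjusted p 0.246).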

How the data were processed

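Libraries were made with a stranded mRNA kit, per the labels' protocols. The submitters' processing notes name STAR 2.5.3a, RSEM 1.3.0 and the build GRCm38. The deposited values were whole numbers and were taken to be expected counts that the authors rounded. The annotation release and strand setting of the counting are not given in the sources used here. Pfkfb1 overlaps Apex2, and Pcx overlaps Lrfn4, on the opposite strand, and counts of either pair would mix if strand was not used.

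Testing used edgeR 4.0.16 (R 4.3.3). After filterByExpr and TMM scaling, all 37 libraries entered a single robust quasi-likelihood fit, with 10 groups plus sex as terms. The procedure was first tested on simulated data. SE is the log2 change over the square root of F. CPM use TMM-scaled sizes. Depth (the total counts in the report) sets counting error only, and livers spread more (common biological coefficient of variation 0.39). Replicates were checked for duplicates and all were kept, since the least chi-square per degree of freedom between any pair of a group was 32.07. Alternatives were DESeq2 1.42.0, RLE or total count scaling, no count filter, no sex term, male libraries alone, only the groups compared, no 6 h sham livers, and each library left out. Exon lengths came from GENCODE M21, which holds 55227 of the gene identifiers. Plots were made in matplotlib 3.10.9 under Python 3.11.15.

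The 9 genes and the lists were chosen with earlier results of these data known. The 9 genes are described in each comparison, by their range alone where little moved, with up to 4 genes of smallest p among those called of each list, and Pfkl in KO livers at 24 h was named besides, after its values were seen. The genes closest in pattern were the 3 with the highest r. A few genes that these rules name are not reported here. No list was tested as a set.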

Additional observations from a re-analysis of the deposited data

Results flagged for a closer look

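Within groups of 4 or 5 livers, 45 sets of values of these genes were checked for 1 liver far from the others, by the gap to the nearest liver over the group's range (Dixon's 95% critical value). The check marked 7. A rate of about 1 in 20 by chance holds for independent, normally distributed values. These CPM were not log-scaled and the genes share their livers, so no excess can be read from the 7. After hepatectomy, G6pc in KO 24 h replicate 1 (239.5 CPM) and Pfkfb1 in KO 48 h replicate 3 (17.9 CPM) were far above their groups, and Pck1 in WT 48 h replicate 4 (594 CPM) was far below its group. Among sham livers, G6pc in WT sham replicate 3 was low at 49.5 CPM. The sham livers taken at 6 h accounted for the other 3 values, all high: Gys2 in KO sham replicate 5 (330.8 CPM), Pfkfb1 in WT sham replicate 5 (55.26 CPM) and Pfkfb3 in WT sham replicate 5 (75.68 CPM). Without WT 48 h replicate 4, the log2 change of Pck1 in WT livers at 48 h was 0.47 in place of 0.17, and neither passed.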

How the results depend on the processing

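No paired analysis was possible because the labels give nothing that links one liver to another. Groups held 3 to 5 livers, which limits the differences detectable here, and Ppargc1a rests on few counts. The cause of the differences between settings was not tested. Total count scaling was chosen after seeing the data, with TMM factors lowest at 6 h.

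The counts below are of the 9 genes called. KO 6 h against sham had 0, and 3 with no count filter, 1 with DESeq2, 1 with only the groups compared and 0 to 1 with 1 library left out. KO 24 h had 3, and 6 with no filter, 4 with total count scaling, 0 with only the groups compared and 1 to 4 with 1 library left out. KO 48 h had 0, and 3 with no filter, 1 with DESeq2, 1 with only the groups compared and 0 with a library left out. KO 7 d had 0, and 1 with no filter. WT 6 h had 2, and 3 with no filter, 1 with RLE scaling, 1 with no sex term, 1 without the 6 h sham livers, 0 with total count scaling, 0 in males alone, 0 with only the groups compared and 0 to 1 with a library left out. WT 24 h had 0, and 2 with no filter and 1 with DESeq2. WT 48 h had 3, and 6 with no filter, 4 with DESeq2, 4 with RLE scaling, 2 with total count scaling, 2 without the 6 h sham livers, 1 in males alone, 0 with only the groups compared and 1 to 4 with a library left out. KO against WT had 0 at each stage. At 24 h it had 3 with no filter, 2 with total count scaling, 2 in males alone, 1 with no sex term, 1 without the 6 h sham livers, 1 with DESeq2 and 0 to 3 with a library left out, and with no filter it had 2 at 6 h and 1 at 48 h. Interactions had 0, and with no filter 2 at 24 h, 4 at 48 h and 1 at 7 d, and at 24 h 1 in males alone and 0 to 2 with a library left out. Male against female had 0, and 1 with no filter. No result changed direction under the settings run while called.

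Counts over all genes moved more. Across the settings, those of KO 6 h ran from 252 to 1855 (1030 reported), KO 24 h 1138 to 6161 (4351), KO 48 h 210 to 828 (467), KO 7 d 0 to 155 (0), WT 6 h 1 to 2943 (1223), WT 24 h 0 to 1187 (144), WT 48 h 301 to 2075 (1291) and WT 7 d 0 to 250 (0). KO against WT ran from 3 to 871 after sham operation (43), 5 to 358 at 6 h (18), 0 to 5452 at 24 h (2891), 17 to 621 at 48 h (53) and 2 to 97 at 7 d (7). Interactions ran from 0 to 110 at 6 h (0), 0 to 3659 at 24 h (1319), 0 to 401 at 48 h (0) and 0 to 67 at 7 d (0), and male against female from 430 to 1093 (558).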

Other observations

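Genes that mark the zones of the liver lobule were counted after hepatectomy. Gluconeogenesis is known to be strongest in the periportal zone, near the incoming blood. In KO livers at 24 h, 1 of 9 periportal genes rose and 4 fell, and 0 of 8 pericentral genes passed (2 unadjusted, 0 by DESeq2), where 28% of all genes were called. Without KO 24 h replicate 1, 2 of the 8 pericentral genes fell, in a fit that called 6161 of 15555 genes. In WT livers at 48 h 6 of 9 periportal genes fell and 0 rose, and 2 of 8 pericentral genes fell, where 8.29% of all genes were called. Without the 6 h sham livers 5 periportal genes and 1 pericentral gene fell there, in a fit that called 1348 of 15557 genes. Of the periportal genes, 1 of 9 fell in KO livers at 48 h (5 unadjusted, 1 by DESeq2) and 1 in WT livers at 24 h (6 unadjusted, 3 by DESeq2), and 0 of 8 pericentral genes passed in KO livers at 48 h (0 unadjusted, 0 by DESeq2) or in WT livers at 24 h (3 unadjusted, 0 by DESeq2). Of all genes, 3% were called in KO livers at 48 h and 0.925% in WT livers at 24 h. Gls2, the liver glutaminase, averaged 99.6 CPM in KO 24 h livers and 246 CPM in KO sham livers (log2 change -1.29 ± 0.19, adjusted p 4.65e-05 in edgeR's quasi-likelihood test). It averaged 131 CPM in WT 48 h livers and 351 CPM in WT sham livers (-1.45 ± 0.20, 4.48e-05). Cyp2f2 averaged 200.5 CPM in WT 48 h livers and 956 CPM in WT sham livers (-2.55 ± 0.45, 0.00094). Arg1, the arginase of the urea cycle, went the other way in KO livers at 24 h, with 2283 CPM against 1145 CPM in KO sham livers (0.99 ± 0.30, 0.0145). The pericentral genes that fell in WT livers at 48 h were Cyp2e1 (-1.82 ± 0.36, adjusted p 0.0023) and Cyp1a2 (-1.67 ± 0.52, 0.0425).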
